A study of Danio rerio with 12 samples.

Results

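Cyclins and the cyclin-dependent kinases (Cdks) that they activate were followed through early zebrafish development, with and without smchd1. The genes were taken by symbol: every gene identifier whose symbol begins with ccn, further letters and a number, or with cdk and a number, or is ccnc, ccnf or ccnh, leaving out ccng1. This gave 52 of 31462 identifiers, of which 25752 (81.9%) had a symbol. By name they were 2 A cyclins, 3 B cyclins, 4 D cyclins, 2 E cyclins, 3 other cyclins, 5 cell cycle kinases, 15 kinases and cyclins of transcription, 8 atypical kinases and cyclins, and 10 genes that are only named after a cyclin or a kinase. Poly-A RNA had been sequenced from AB strain embryos, 30 to 50 to a library, at the 4- to 8-cell stage and at the sphere stage. At each stage 3 libraries came from wildtype (wt) embryos and 3 from maternal-zygotic (MZ) embryos homozygous for lof1, a CRISPR/Cas9 loss-of-function allele of smchd1. MZ embryos lack both the transcript that the mother loads into the egg and that of their own genome, and the MZ libraries represent 1 allele. Each library is a pool of whole embryos, so that fewer cells of a type and less RNA per cell cannot be told apart, nor, after poly-A selection, can the amount of a transcript and the length of its tail.

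Cyclins are the regulatory subunits of Cdks, and their rise and destruction drive the cell cycle. Cyclins A and B with Cdk1 bring on mitosis, cyclin E with Cdk2 brings on DNA replication, and cyclin D with Cdk4 or Cdk6 ties entry into the cycle to outside signals through Rb. Zebrafish cleavage divisions run fast and in synchrony on maternal RNA with little or no gap phase, and the cycles lengthen in the blastula as the zygotic genome is switched on and maternal RNA is cleared. Other members of the family, such as Cdk7, Cdk8, Cdk9 and Cdk12, act on RNA polymerase II.

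The libraries matched their labels. Levels in CPM are counts scaled to library size with TMM factors, so that libraries can be compared gene by gene. The smchd1 transcript stood at 213 to 256 CPM in wt 4- to 8-cell embryos and at 5.19 to 7.57 CPM in MZ embryos, a log2 fold change of -5.17 (SE 0.15, adjusted p = 0.000105, edgeR quasi-likelihood). At the sphere stage the change was -5.95 (SE 0.23, adjusted p = 6.06e-05). The CPM summed over 14 zygotic genes of the blastula was 4.18 to 8.20 at the 4- to 8-cell stage and 1423 to 2966 at the sphere stage, and the sum over 9 maternal egg transcripts went from 4585 to 5281 down to 1519 to 2427. Markers of ovarian follicle, blood and testis summed to at most 2.71, 1.36 and 6.44 CPM in any library. Libraries held 7829742 to 23681822 expected counts, the fewest in MZ sphere replicate 1, which also had the highest share of ribosomal RNA (3.98%).

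Transcripts of A, B and E cyclins made up most of the family at both stages. Levels between genes are compared here in TPM, which correct for gene length as well as for library size. In wt 4- to 8-cell embryos the highest were ccnb1 (1483 ± 4.67 TPM), ccnb2 (1127 ± 59.0), ccna1 (1064 ± 39.0), ccna2 (1011 ± 76.8), ccne1 (502 ± 26.5) and CCNT2 (ENSDARG00000036510, 226 ± 4.89; SD, n = 3 each). These 6 genes held 72.5% of the 7469 TPM of all members. Among them ccnb1 lay above the other A and B cyclins in every library, and the ranges of ccna1 and ccna2 touched those of their neighbours.

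At the sphere stage the order in wt was ccnb1 (1289 ± 157 TPM), ccna2 (1092 ± 35.7), ccna1 (909.6 ± 106), ccnb2 (738 ± 136), ccne1 (556 ± 90.8) and ccnd1 (319 ± 55.3), which together held 73.5% of 6669 TPM. ccnd1 had replaced CCNT2 among the 6 highest. The 2 scales moved apart for the family as a whole, since its share of all counts in wt was 0.788% to 0.801% at the 4- to 8-cell stage and 0.968% to 1.02% at the sphere stage, while its summed TPM went from 7211 to 7674 to 6375 to 7250. ccnb1, ccna2 and ccnd1 lay apart from their neighbours in that order in every library, whereas ccna1 overlapped ccnb2, and ccnb2 overlapped ccne1. At the low end, 9 members in wt 4- to 8-cell embryos and 8 in wt sphere embryos had a mean under 1 TPM.

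**Figure D1:**
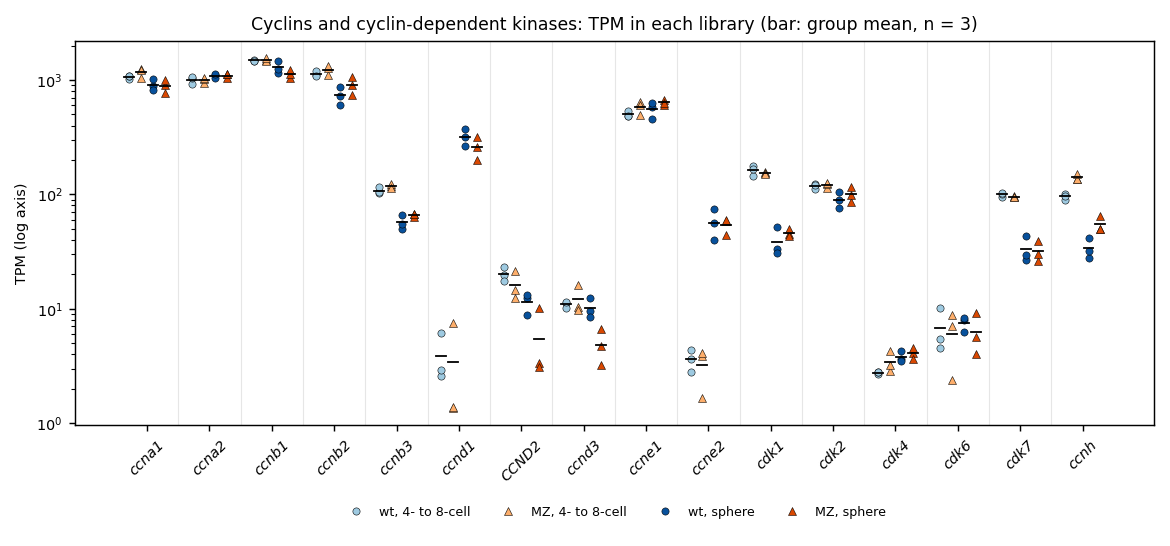
TPM (log axis) of 16 cyclins and kinases in each of the 12 libraries, by group, with the group mean as a bar (n = 3). CCND2 is ENSDARG00000051748. ccnd1 and ccne2 stand apart between stages by more than an order on the axis, cdk1, cdk7 and ccnh are lower at the sphere stage, and ccna1, ccna2, ccnb1 and ccne1 stay near the top throughout.

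Between the 4- to 8-cell and the sphere stage of wt embryos, which sets fast cleavage cycles against a slowing blastula, 22 members rose and 8 fell of 44 that passed a filter on mean count. Among all genes tested, 24.7% were called higher and 23.6% lower (edgeR quasi-likelihood, adjusted p under 0.05). The 44 had passed the filter through their level in either stage. Changes above 2-fold were fewer, 6 higher and 4 lower, beside 12.4% and 12.5% of all genes. The median log2 fold change of the members was 0.39, and that of all genes -0.01. In 20 of the 22 that rose and 8 of the 8 that fell, the libraries of the stages did not overlap, as in 96.1% of all genes called higher and 95.5% of those called lower. Many of the increases were small and rest on the scale: on log2(TPM + 1) the median of all genes moved to -0.48 in wt and -0.35 in MZ, and 10 of the 22 increases turned to a negative value with no call. They are ccna1, ccnb1, ccnc, CCNT2 (ENSDARG00000036510), CCNL1, CDK11A, cdk9, cdk12, cdk13 and cdk2ap2. A further 7 lost their call, ccna2, ccne1, ccnl1b, cdk4, cdk6, cdk10 and cdk17. The 5 increases called in each of 22 alternatives were those of ccnd1, CDK5R1 (ENSDARG00000037916), ccne2, ccng2 and ccnf, and the 6 such decreases were those of cdk1, cdk7, ccnh, ccnt1, cdk5 and cdk5rap1.

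**Figure D2:**
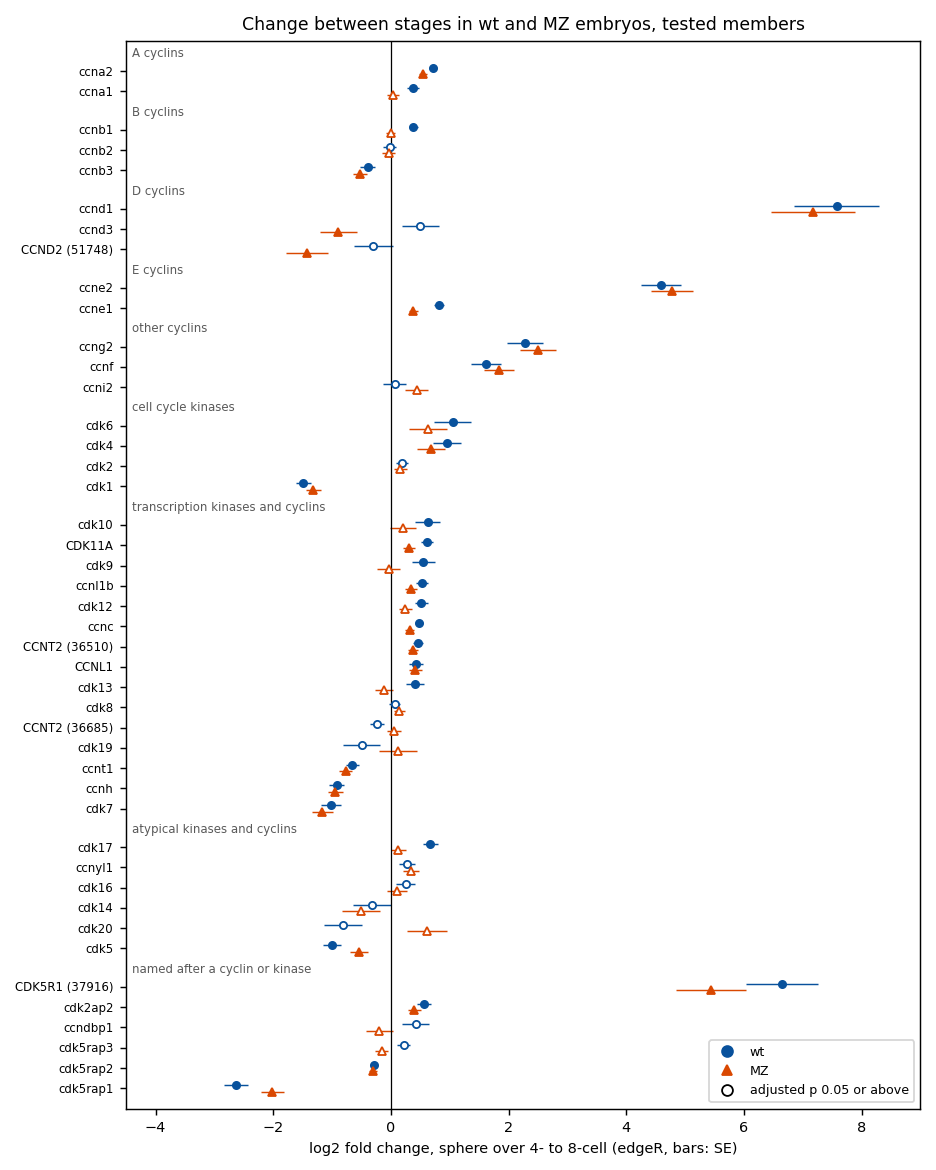
Log2 fold change from the 4- to 8-cell to the sphere stage for the 44 tested members (edgeR, bars are SE), wt as circles and MZ as triangles, filled where the adjusted p is under 0.05, with the end of the identifier beside symbols that 2 identifiers share. ccnd1, CDK5R1 and ccne2 lie far to the right of 0, and cdk5rap1, cdk1 and cdk7 to the left, in both genotypes.

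The A cyclins, partners of Cdk1 and Cdk2, were abundant throughout. ccna2 stood at 1024, 1078 and 1093 CPM in wt 4- to 8-cell libraries and at 1825, 1771 and 1657 CPM in wt sphere libraries. The libraries of the stages did not overlap in CPM, and the log2 fold change was 0.72 (SE 0.07, adjusted p = 6.21e-06, edgeR). In TPM they overlapped, at 923 to 1064 before and 1052 to 1122 after, and the call was lost. ccna1, the A cyclin that in other vertebrates is used in germ cells and early embryos, was at 919, 926 and 923 CPM and then at 1203, 1135 and 1258 CPM (log2 fold change 0.38, SE 0.10, adjusted p = 0.00702, edgeR), a direction that TPM turned.

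B cyclins, the partners of Cdk1 at mitosis, went separate ways in CPM. On log2(TPM + 1), where the median of all genes was -0.48, all 3 had negative changes in wt. ccnb1 was at 1603, 1497 and 1476 CPM and then at 1845, 2030.4 and 2091 CPM in wt (0.38, SE 0.08, adjusted p = 0.00127, edgeR), with no overlap between stages and a negative value in TPM. ccnb2 did not pass, with 959.5 ± 58.4 CPM before and 946 ± 114 CPM after (-0.02, 95% interval -0.27 to 0.23). ccnb3, a B cyclin known from meiosis and anaphase, fell from 84.7 ± 6.33 to 64.3 ± 11.9 CPM (-0.40, SE 0.12, adjusted p = 0.0197, edgeR), a call that 5 of 22 alternatives lost.

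Among the D and the E cyclins, 1 copy of each rose from a few CPM while the others tested changed by less than 2-fold in wt. ccnd1 was at 3.24, 2.12 and 7.76 CPM in the wt 4- to 8-cell libraries, 282 reads in all, and at 799, 1027 and 663 CPM in the wt sphere libraries. Every sphere library stood far above every cleavage library, and the log2 fold change was 7.58 (SE 0.73, adjusted p = 6.64e-06, edgeR). Of the other D cyclins, ccnd3 was at 7.11 ± 0.620 CPM and then 10.1 ± 2.52 CPM (0.50, 95% interval -0.17 to 1.18), and CCND2 (ENSDARG00000051748) at 13.03 ± 1.91 CPM and then 10.6 ± 1.90 CPM (-0.30, 95% interval -1.04 to 0.44). Neither passed the test in wt. The second CCND2 identifier (ENSDARG00000070408) had 0 reads in the wt cleavage libraries and 8 in the wt sphere libraries and was not tested.

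ccne2 was at 5.04, 3.87 and 3.19 CPM and then at 90.7, 136 and 66.4 CPM (log2 fold change 4.59, SE 0.35, adjusted p = 1.26e-06, edgeR). ccne1, the more abundant E cyclin at both stages, went from 546, 518 and 507 CPM to 849, 954 and 963 CPM (0.82, SE 0.08, adjusted p = 8.00e-06, edgeR). In CPM both E cyclins lay apart between the stages, ccne2 by 24.1-fold and ccne1 by 1.76-fold. In TPM the ccne1 libraries overlapped, at 485 to 533 before and 456 to 633 after, and its call was lost.

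Among sphere libraries the levels of ccnd1, ccne2 and CDK5R1 were lowest in replicate 3 of each genotype. The summed zygotic markers were also lowest there, at 1831 CPM in wt replicate 3 against 2407 and 2966, and at 1423 CPM in MZ replicate 3 against 2479.9 and 2248. The part of that difference in the values above was not tested.

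The kinases of the cell cycle differed in direction. cdk1, the mitotic kinase, fell from 111, 125 and 116 CPM to 38.0, 35.2 and 52.0 CPM in wt (log2 fold change -1.49, SE 0.13, adjusted p = 3.64e-06, edgeR). cdk2 was at 112 ± 9.73 CPM before and 127 ± 12.3 CPM after and did not pass (0.19, 95% interval -0.05 to 0.43). On log2(TPM + 1) cdk2 was called lower (adjusted p = 0.0185, limma). With the same values centred on the median of all genes it was called higher (adjusted p = 0.0248, limma). The median change of all genes was -0.48 before this centring and 0.22 after it, so the direction of cdk2 rests on the scale. cdk4 and cdk6, the partners of D cyclins, were scarce: cdk4 was at 3.48, 3.02 and 3.14 CPM and then 7.39, 6.18 and 5.21 CPM (0.96, SE 0.24, adjusted p = 0.00586, edgeR), and cdk6 at 5.66 ± 2.06 and then 11.7 ± 2.78 CPM (1.05, SE 0.31, adjusted p = 0.0161). Both rose, and both calls were lost on the TPM scale; that of cdk6 was also lost without wt 4- to 8-cell replicate 1 or 2 or wt sphere replicate 3. cdk21 had 5 reads in all in the wt libraries and was not tested.

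The 15 genes of transcription comprised the Cdk7 and cyclin H pair, which activates other Cdks and is part of TFIIH, the Cdk9 and cyclin T kinase that releases paused polymerase, the Cdk8 or Cdk19 and cyclin C module of Mediator, Cdk12 and Cdk13, which phosphorylate elongating polymerase, and Cdk10, Cdk11 and cyclins L. In wt 9 of the 15 rose and 3 fell, none upward by more than 2-fold, beside 24.7% and 23.6% of all genes. None of the 9 increases was called on either TPM scale, and 7 of them turned negative there. cdk7 fell from 69.2, 67.9 and 69.2 CPM to 28.2, 32.2 and 41.6 CPM (log2 fold change -1.02, SE 0.17, adjusted p = 0.000437, edgeR). Its partner ccnh fell from 72.6, 59.6 and 64.6 CPM to 29.5, 34.85 and 39.7 CPM (-0.92, SE 0.13, adjusted p = 9.64e-05, edgeR). The libraries of the stages did not overlap for either gene. ccnt1 also fell, from 54.3 ± 4.25 to 34.5 ± 3.31 CPM (-0.66, SE 0.12).

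The 9 that rose had log2 fold changes between 0.40 for cdk13 and 0.63 for cdk10. The call of cdk13 was lost in 16 of 22 alternatives, and those of cdk10 and cdk9 in 9 each. CDK11A was at 166 ± 5.87 and then 254 ± 36.2 CPM (0.61, SE 0.10, adjusted p = 0.000436, edgeR), ccnl1b at 169.7 ± 26.1 and then 245 ± 11.8 CPM (0.53, SE 0.10), and ccnc at 81.3 ± 0.558 and then 113 ± 4.98 CPM (0.48, SE 0.07). cdk8 (0.06), cdk19 (-0.50) and the second CCNT2 identifier (ENSDARG00000036685, -0.23) did not pass.

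The remaining cyclins and kinases moved one by one. ccng2, a cyclin linked in mammals to arrest of the cycle, rose from 6.01 ± 2.25 to 29.2 ± 9.13 CPM (by 2.28 in log2, SE 0.30, adjusted p = 6.93e-05, edgeR). ccnf, which in mammals picks substrates for a ubiquitin ligase, rose from 10.3 ± 2.40 to 31.5 ± 5.52 CPM (1.62, SE 0.25, adjusted p = 0.000217). cdk5, an atypical kinase best known from neurons, fell from 76.1, 72.3 and 77.4 CPM to 30.9, 37.2 and 44.3 CPM (-1.01, SE 0.16, adjusted p = 0.000209, edgeR), and cdk17 rose from 43.7 ± 1.75 to 69.6 ± 9.95 CPM (0.67, SE 0.13).

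CDK5R1 (ENSDARG00000037916), whose mammalian namesake activates Cdk5, went the other way from cdk5. It had 13 reads in the 3 wt cleavage libraries (0.12, 0.19 and 0.29 CPM) and 973 in the wt sphere libraries (27.0, 23.5 and 11.5 CPM), or 6.64 on the log2 scale (SE 0.61, adjusted p = 5.02e-06, edgeR). cdk5rap1, which in mammals modifies mitochondrial transfer RNA, fell from 20.6, 21.9 and 20.2 CPM to 2.82, 3.22 and 4.03 CPM (-2.63, SE 0.20, adjusted p = 1.41e-06, edgeR). No library of one stage reached the range of the other for either gene. cdk5rap2, which encodes a centrosome protein, fell by 0.30 on the log2 scale (SE 0.07, adjusted p = 0.00288, edgeR). The identifiers that were not tested, besides those above, were cdk15, cdk18, ccnb1ip1, the second CDK5R1 and both CDK5R2, with at most 24 reads in any group.

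Ratios of TPM within a library do not depend on how libraries are scaled to each other, and they show how the make-up of the family changed. ccnd1 was 7.67%, 9.47% and 15.1% of D cyclin TPM in wt 4- to 8-cell libraries and 94.5%, 93.7% and 92.3% in wt sphere libraries. ccne2 went from 0.568% to 0.890% up to 5.95% to 11.3% of E cyclin TPM, so that ccne1 remained the main E cyclin. ccna2 went from 48.7 ± 1.02% to 54.6 ± 2.12% of A cyclin TPM. None of these ranges overlapped between the stages in wt.

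cdk1 was 54.1% to 61.1% of the TPM of cdk1 and cdk2 together in wt 4- to 8-cell libraries, and 27.4% to 32.8% in wt sphere libraries. Summed B cyclin TPM was 2718 ± 59.2 and then 2084 ± 269 in wt, and per cdk1 TPM it went from 16.8 ± 1.498 to 55.8 ± 8.46 (SD, n = 3 each). In MZ libraries the same ratio went from 18.6 ± 1.06 to 45.6 ± 4.24. ccnb1 was 53.4% to 55.4% of B cyclin TPM in wt 4- to 8-cell libraries and 59.7% to 65.0% in wt sphere libraries, but 51.0% to 55.1% and 51.9% to 56.2% in the MZ libraries, which overlapped.

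**Figure D3:**
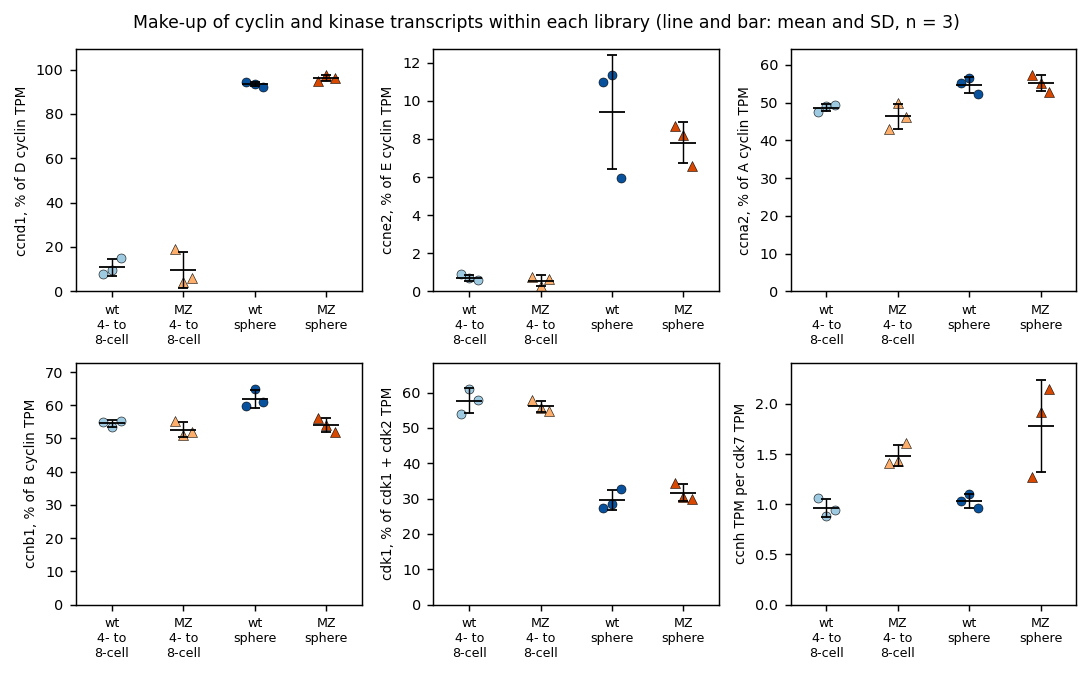
Shares and ratios of TPM within each library, by group, with mean and SD (n = 3), axes from 0. ccnd1 goes from under 20% to over 90% of D cyclin TPM in both genotypes, cdk1 drops below 35% of cdk1 plus cdk2, and ccnh per cdk7 is higher in MZ than in wt at each stage.

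The MZ comparison shares no library with the wt comparison, but 1 fit to all 12 libraries gave both. In MZ embryos 14 members rose and 10 fell between the stages, beside 20% and 19.6% of all genes. By more than 2-fold 5 rose and 4 fell, beside 11.8% and 8.58%. The median of the members was 0.13 and that of all genes 0. All 14 were among the 22 that rose in wt (63.6% of those), and the 8 that fell in wt were all among the 10 (80%). The overlap among all called genes was not counted. ccnd1 went from 10.2, 1.67 and 1.54 CPM to 888, 667 and 447 CPM (log2 fold change 7.17, SE 0.72, adjusted p = 1.56e-05, edgeR), ccne2 rose by 4.77 on the log2 scale (SE 0.36) and cdk1 fell by 1.32 (SE 0.13). Called in MZ and not in wt were CCND2 (ENSDARG00000051748), which fell from 15.3, 9.26 and 8.48 CPM to 6.64, 3.21 and 2.68 CPM (-1.43, SE 0.36, adjusted p = 0.00748, edgeR), and ccnd3 (-0.89, SE 0.32, adjusted p = 0.0434), whose call 11 of 22 alternatives lost. Called in wt and not in MZ were ccna1, ccnb1, cdk6, cdk9, cdk10, cdk12, cdk13 and cdk17. A call in one genotype alone does not show that the genotypes differ, which the interaction tests. Without MZ sphere replicate 2, the count that rose in MZ was 9, beside 2547 of all 16550 genes.

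Whether the stage change itself differed with genotype was tested as an interaction, and no member passed: 0 of 44 were higher and 0 lower, where 1.1% and 0.874% of all genes were called (edgeR quasi-likelihood). At an unadjusted p under 0.05 there were 2 higher and 8 lower, and DESeq2 called 0 and 4. Among all 16595 genes tested, 3445 were under 0.05 in either direction, and DESeq2 called 760 higher and 690 lower. Of the 44 values 32 were negative, that is, a lower stage change in MZ. The median of the 44 was -0.15 and that of all genes 0.00. On log2(TPM + 1) the median of all genes was 0.14, and the members below 0 were not counted on that scale. The largest were those of cdk20 (1.43, 95% interval 0.40 to 2.46, adjusted p = 0.123), ccnd3 (-1.39, -2.36 to -0.42, adjusted p = 0.113) and CDK5R1 (ENSDARG00000037916, -1.20, -3.05 to 0.64, adjusted p = 0.449). cdk20 was at 2.38, 1.60 and 2.75 CPM and then 1.44, 1.18 and 1.18 CPM in wt, and at 1.05, 0.84 and 0.92 CPM and then 1.63, 1.13 and 1.58 CPM in MZ libraries, with 50 to 148 reads in a group. Its libraries lay apart between stages in each genotype, downward in wt and upward in MZ, although neither stage change passed. The 4 that DESeq2 called were ccnb1 (edgeR -0.39, SE 0.11, adjusted p = 0.0795), ccne1 (-0.44, SE 0.11, adjusted p = 0.0688), ccnd3 and cdk17 (-0.55, SE 0.18, adjusted p = 0.118). cdk17 also passed without wt sphere replicate 3 (adjusted p = 0.0473, edgeR).

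Genotypes were then compared within a stage. In 4- to 8-cell embryos 2 of 43 members tested were higher in MZ and 0 were lower, where 1.33% and 1.69% of all genes were called (edgeR). DESeq2 called 3 higher, adding ccne1, and 1 lower, CCNL1. At an unadjusted p under 0.05 there were 5 higher and 3 lower. Among all 15937 genes tested, 3506 were under 0.05 in either direction, and DESeq2 called 916 higher and 1011 lower. ccnh was at 72.6, 59.6 and 64.6 CPM in wt and at 100.4, 91.4 and 103.5 CPM in MZ libraries. Every MZ library lay above every wt library, and the log2 fold change was 0.58 (SE 0.09, adjusted p = 0.0305, edgeR). How often the genotypes lie apart among all genes was not counted, for this gene or those below. The call was lost in 6 of 16 alternatives, among them leaving out wt replicate 2 or 3 or any of the 3 MZ replicates (adjusted p of 0.0364 to 0.0993 over the 6 libraries left out in turn).

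cdk5rap2 was at 144, 144 and 142 CPM in wt and at 171, 174 and 171 CPM in MZ libraries (0.26, SE 0.05, adjusted p = 0.0458, edgeR). The groups did not overlap, but the call was lost in 11 of 16 alternatives, and without any 1 of the 6 libraries (adjusted p of 0.0846 to 0.134). cdk7, the kinase that cyclin H binds, did not pass, with 68.8 ± 0.726 CPM (wt) and 67.3 ± 4.18 CPM (MZ) (-0.04, 95% interval -0.21 to 0.14), and ccnh TPM per cdk7 TPM was 1.06, 0.885 and 0.945 in wt and 1.41, 1.43 and 1.61 in MZ libraries. Of the A, B and E cyclins and their kinases, ccna2, ccnb1, cdk1 and cdk2 had 95% intervals between -0.21 and 0.20. ccne1 was at 0.25 (0.10 to 0.40, adjusted p = 0.0821, edgeR) with no overlap between the genotypes, and DESeq2 called it (adjusted p = 0.00646). ccnb2 was at 0.16 (-0.01 to 0.32), also without overlap, and ccna1 at 0.16 (-0.05 to 0.37).

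In sphere embryos none of 44 members passed in either direction, where 3.71% of all genes were called higher and 4.07% lower in MZ (edgeR). At an unadjusted p under 0.05 there were 3 higher and 10 lower, and DESeq2 called 1 and 5. Among all 16314 genes tested, 4682 were under 0.05 in either direction, and DESeq2 called 1275 higher and 1450 lower. The median of the members was -0.17, with 29 of 44 below 0, and that of all genes 0.00. On log2(TPM + 1) the median of all genes was 0.13. ccnh stood in wt at 29.5, 34.85 and 39.7 CPM and in MZ libraries at 48.4, 48.4 and 56.3 CPM (0.55, SE 0.15, adjusted p = 0.0687, edgeR), without passing. It was called higher in 2 of 16 alternatives, DESeq2 and a fit to all 12 libraries. The groups did not overlap, and ccnh TPM per cdk7 TPM was 0.966 to 1.098 in wt and 1.27 to 2.15 in MZ.

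Among the lower values, ccnb1 was at 1845, 2030.4 and 2091 CPM in wt, against 1507, 1653 and 1604 CPM in MZ sphere libraries (-0.33, SE 0.09, adjusted p = 0.0668, edgeR). ccnd3 was at 9.71, 12.8 and 7.76 CPM in wt, against 6.10, 2.96 and 3.94 CPM in MZ (-1.25, SE 0.35, adjusted p = 0.0668). CCND2 (ENSDARG00000051748) was at 8.45, 12.1 and 11.2 CPM in wt, against 6.64, 3.21 and 2.68 CPM in MZ (-1.38, SE 0.38, adjusted p = 0.0658). For these 3 genes, chosen after their values were seen, the highest MZ library was under the lowest wt library. How often the genotypes lie apart among all genes was not counted. DESeq2 called these 3 genes, as did a fit to all 12 libraries, and ccnd3 and CCND2 were called without MZ sphere replicate 1. DESeq2 and that fit also called ccndbp1 and cdk5rap3 lower, which are only named after a cyclin or a kinase. CDK11A and cdk12 were called lower by that fit as well. ccnb1 was also called with a block for replicate number. Each of the 3 genes was called in only 3 of 16 alternatives and not called in 13. ccnd1, the abundant D cyclin of this stage, was at 829.7 ± 184 CPM in wt, against 667 ± 220.5 CPM in MZ (-0.32, 95% interval -0.91 to 0.26).

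The sums of maternal and zygotic markers overlapped between the genotypes at this stage, but their medians differed. The median log2 fold change of MZ over wt was 0.38 for the maternal and -0.25 for the zygotic markers, beside -0.003 for all genes. The summed maternal markers were 1519 to 1849.6 CPM in wt and 1783 to 2427 CPM in MZ sphere libraries, and 0 of 9 were called between genotypes at this stage. The summed zygotic markers were 1831 to 2966 CPM in wt and 1423 to 2479.9 CPM in MZ, with 0 of 14 called. Their part in the values above was not tested.

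**Figure D4:**
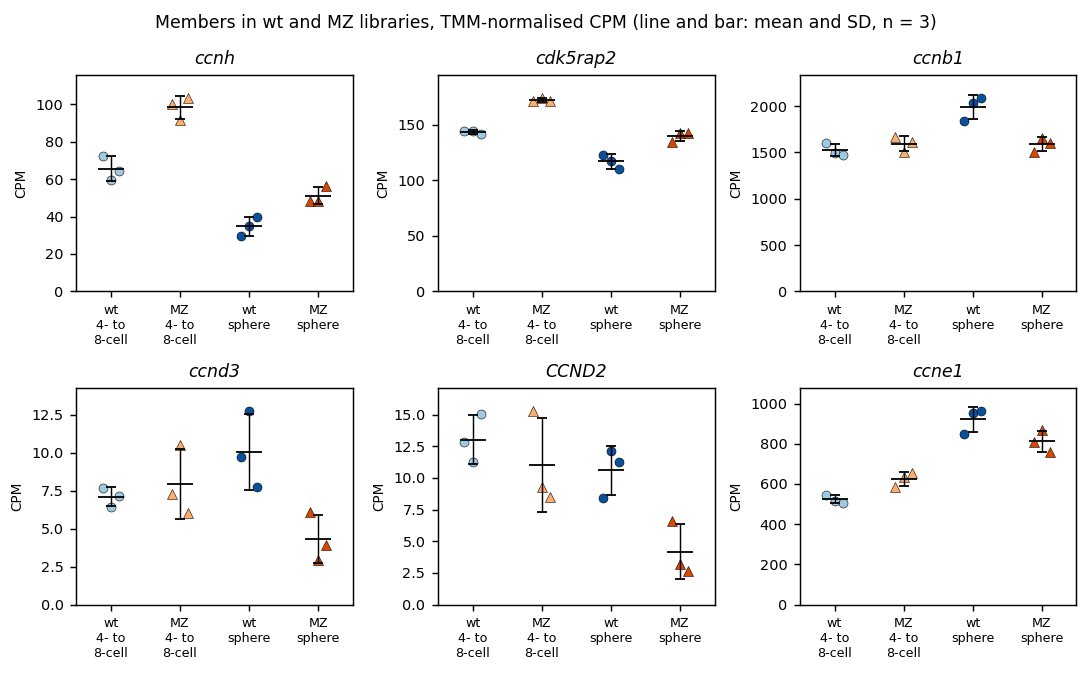
CPM of 6 members in each library, by group, with mean and SD (n = 3), axes from 0, CCND2 being ENSDARG00000051748. The MZ libraries of ccnh and cdk5rap2 lie above the wt libraries at each stage, and those of ccnb1, ccnd3 and CCND2 lie below the wt libraries at the sphere stage.

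Genes that act on or with Cdks were counted in 7 lists. The counts stand beside 24.7% of all genes tested called higher between the stages in wt and 23.6% called lower. Of 7 genes tested in the list of Cdk inhibitors, 3 rose and 3 fell between the stages in wt. The list went by symbol, so that these counts are not of inhibitors alone. The 3 that rose were cdkn1ca and cdkn1cb, copies of the p57 inhibitor, and cdkn1a, the p21 inhibitor. cdkn1ca went from 6.94 ± 2.66 to 74.6 ± 17.2 CPM (log2 fold change 3.42, SE 0.33) and cdkn1cb from 0.178 ± 0.0586 to 33.7 ± 7.001 CPM (7.48, SE 0.39). cdkn1a rose from 0.235 ± 0.148 to 9.53 ± 5.40 CPM. cdkn3, a phosphatase that acts on Cdks, fell from 24.6 ± 3.30 to 4.67 ± 2.37 CPM (-2.39, SE 0.33). The others that fell were cdkn2aip, which is only named after an inhibitor, and cdkn2d. cdkn2aip went from 46.2 ± 6.52 to 33.7 ± 3.47 CPM, and cdkn2d from 0.870 ± 0.188 to 0.229 ± 0.220 CPM. CDKN1B did not pass, with 53.7 ± 13.7 CPM before and 65.0 ± 11.3 CPM after (0.27, SE 0.18).

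Of 4 genes for the kinases and phosphatases that set the inhibitory phosphate on Cdk1, 3 rose and 1 fell in wt. wee1, an inhibitory kinase, rose from 43.5 ± 13.4 to 228 ± 50.7 CPM (2.39, SE 0.28), and cdc25b, an activating phosphatase, from 366 ± 10.3 to 619 ± 51.2 CPM (0.76, SE 0.08), a call that was lost in TPM. pkmyt1, the other inhibitory kinase type, fell from 45.8 ± 7.67 to 11.3 ± 1.19 CPM (-2.02, SE 0.18). wee2, the egg form of the Wee kinases, rose from 304 ± 18.6 to 407 ± 58.0 CPM in wt (0.42, SE 0.10) but fell from 353 ± 5.06 to 279.5 ± 16.5 CPM in MZ (-0.34, SE 0.10), and the difference passed the interaction test (-0.76, SE 0.14, adjusted p = 0.0297, edgeR). On log2(TPM + 1) its change in wt was -0.18, with no call. In the interaction test 1 of 4 genes was called in this list, and 1 of 28 (gins4) in the replication list. None was called of the 7, 21, 18, 20 and 18 genes tested in the other lists. Of all genes, 1.1% were called higher and 0.874% lower.

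Mitotic kinases and spindle checkpoint genes mostly fell, 12 of 18 in wt with 3 that rose (median -0.71, all genes -0.01). Among all genes tested in wt, 23.6% fell and 24.7% rose, shares that also stand beside the counts that follow. aurkb went from 263 ± 13.4 to 98.2 ± 8.77 CPM (-1.42, SE 0.10) and plk1 from 950.0 ± 5.50 to 565 ± 31.6 CPM (-0.75, SE 0.08). Of the DNA damage and replication checkpoint 8 of 18 fell and 4 rose, with chek1, the kinase that slows the cycle when replication stalls, at 85.6 ± 3.34 and then 40.3 ± 5.27 CPM (-1.09, SE 0.12). Of the anaphase-promoting complex and its partners 7 of 21 fell and 2 rose in wt, with a median of 0.04. The change of anapc13 was -2.18 (SE 0.18). In MZ 4 of the 21 fell and 5 rose (median -0.02), beside 19.6% and 20% of all genes.

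Replication genes were mixed, with 9 of 28 higher and 10 lower in wt, beside 24.7% and 23.6% of all genes. An MCM6 identifier (ENSDARG00000057683), for a subunit of the replicative helicase, rose from 0.318 ± 0.248 to 54.7 ± 10.96 CPM (7.44, SE 0.53). mcm3 rose from 6.68 ± 3.55 to 103 ± 17.3 CPM (3.94, SE 0.40). The other MCM6 identifier (ENSDARG00000033231) was at 325 ± 43.9 and then 396 ± 15.1 CPM, and mcm3l at 277 ± 15.5 and then 186 ± 8.56 CPM. These stood above the rising MCM6 and mcm3 at both stages in wt. cdc45, the helicase partner, fell from 242 ± 5.59 to 62.2 ± 19.4 CPM (-1.96, SE 0.19). Of the Rb and E2F genes, which cyclin D and E kinases act on, 7 of 20 rose and 6 fell, beside the same shares of all genes. e2f7, a repressor of the family, went from 0.465 ± 0.124 to 45.6 ± 17.03 CPM (6.58, SE 0.52) and rbl1, an Rb relative, from 8.18 ± 1.27 to 31.7 ± 4.07 CPM (1.95, SE 0.19). For the stage change in wt, adjusted p-values lie between 8.06e-08 and 0.00434 (edgeR). These are for the list genes named above, without cdkn2aip, cdkn2d, CDKN1B, mcm3l and the other MCM6 identifier.

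Between genotypes, 1 of these genes was called at the 4- to 8-cell stage, anapc5, a subunit of the anaphase-promoting complex that was lower in MZ (42.3 ± 12.8 CPM in wt, against 14.9 ± 3.49 CPM, log2 fold change -1.51, SE 0.27). At the sphere stage, mitotic genes aurkb (98.2 ± 8.77 CPM in wt, against 153 ± 18.1 CPM) and knl1, a kinetochore scaffold (50.5 ± 6.09 CPM, against 104 ± 21.3 CPM), were higher in MZ, 2 of 18 in that list. Of 28 replication genes, 3 were lower in MZ, namely gins4, mcm4 (-0.37, SE 0.09) and an MCM6 identifier (ENSDARG00000033231, -0.58, SE 0.10). rb1, the Rb gene itself, was lower in MZ (172 ± 15.003 CPM in wt, against 123 ± 10.7 CPM), as was wee2 (-0.55, SE 0.13), and HUS1, of the checkpoint clamp, was higher (3.11 ± 0.243 CPM in wt, against 6.63 ± 0.700 CPM). These were 1 of 113 list genes tested (0.885%) at the 4- to 8-cell stage and 8 of 115 (6.96%) at the sphere stage, where 3.02% and 7.78% of all genes were called in either direction, so the lists held no more calls than genes at large. Adjusted p was 0.0376 for anapc5 and between 0.0185 (knl1) and 0.0465 (HUS1) at the sphere stage (edgeR). These genotype calls were not followed through the alternatives. Of all genes, 605 were called higher and 664 lower in MZ sphere embryos. Without MZ sphere replicate 2 there were 44 and 40, and without replicate 3 there were 57 and 51.

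**Figure D5:**
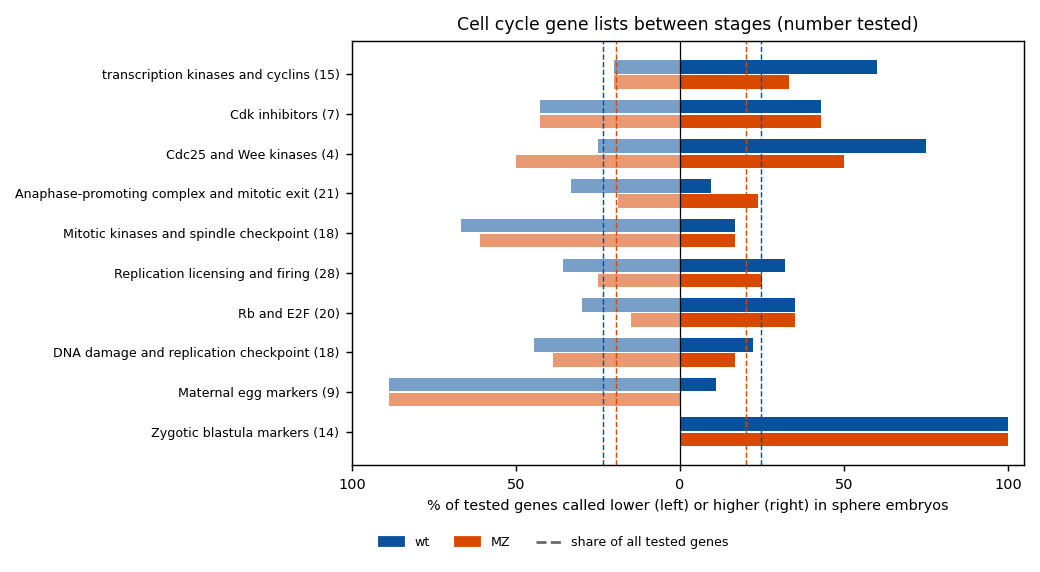
Percent of the tested genes of each list called lower (left) or higher (right) between the stages, in wt and MZ, with the share of all tested genes as dashed lines and the number tested in brackets. All 14 zygotic markers rose, 8 of 9 maternal markers fell, and 12 of 18 mitotic kinase and spindle checkpoint genes fell in wt.

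Replicate error sets what could be seen. The coefficient of variation of the 44 members had a median of 7.89% in wt and 6.40% in MZ 4- to 8-cell libraries, and of 16.4% and 9.39% in wt and MZ sphere libraries. The highest was that of ccnd1 in MZ 4- to 8-cell libraries (111%), where 1 library held 10.2 CPM and the others 1.67 and 1.54 CPM. Symbols in capitals that 2 identifiers share do not say which zebrafish copy is meant, and RSEM divides reads that match more than 1 gene by probability, so that the split between near-identical copies is uncertain.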

How the data were processed

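RNA of 12 pools of zebrafish embryos, 3 biological samples per genotype and stage, was poly-A enriched and sequenced in paired-end mode. The genome build was danRer10 with an Ensembl annotation, and Bowtie and RSEM are the tools given in the submitters' processing notes (versions not given in the sources used here). The deposited tables give RSEM expected counts, and the TPM and FPKM values that the authors derived from them by effective gene length; FPKM was not used here. Groups came from the labels, which do not say that libraries came from separate clutches, so that p-values measure the spread between these samples.

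Expected counts per library, scaled by trimmed mean of M-values (TMM) factors, gave CPM. They were rounded, 1 ribosomal RNA gene was removed, and genes with a mean TMM-normalised count above 10 were kept (52 members, 44 kept). Genotypes were compared in 6 libraries of a stage, and stage changes and the interaction in 1 fit to all 12, by the edgeR 4.0.16 quasi-likelihood test (R 4.3.3) with Benjamini-Hochberg adjustment over all genes. A gene was called at an adjusted p under 0.05. SE came from the F statistic, and 95% intervals from the SE with the degrees of freedom of the test. Alternatives were other or no size factors, no filter, unrounded counts, DESeq2 1.42.0, limma 3.58.1 on log2(TPM + 1) and log2(TPM + 0.1), other samples in the fit, a replicate block and each library left out; limma on TPM centred on the median of all genes was chosen after seeing the data. The code was tested on simulated counts.

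Members, lists and tests were chosen with earlier results of these data known. Named are the A, B, D and E cyclins, the kinases of the cycle, and the 12 largest increases and the 8 decreases called in wt. Also named are members called between genotypes, the 3 largest interactions and the 6 highest levels. From each list came up to 4 genes, taken among the 4 with the lowest adjusted p in wt and not always the lowest. Other genes named (list genes called between genotypes, and ccna1, ccnb2, ccne1 and CCNL1 between genotypes) were chosen after their values were seen. The sphere genotype results of ccnb1, ccnd3, CCND2, CDK11A, cdk12, ccndbp1 and cdk5rap3 were also chosen in this way. So were CDKN1B, cdkn2aip, cdkn2d, mcm3l and the stage values of the other MCM6 identifier (ENSDARG00000033231). Symbols came from tables of gene names and of RefSeq genes. No sequence is printed.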

Additional observations from a re-analysis of the deposited data

Results flagged for a closer look

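wee2, which encodes a Wee kinase, differed between genotypes in its stage change by a test of the difference itself (log2 interaction -0.76, SE 0.14, adjusted p = 0.0297, edgeR). It stood at 322, 304 and 285 CPM in wt and 354, 348 and 357 CPM in MZ 4- to 8-cell libraries, and at 435, 340.3 and 446 CPM in wt and 261, 294 and 284 CPM in MZ sphere libraries. The call was lost in 11 of 21 alternatives (adjusted p of 4.54e-05 to 0.119).

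gins4, which encodes a subunit of the replicative helicase, also differed in its stage change (-1.35, SE 0.28, adjusted p = 0.0370, edgeR). It was at 16.3, 19.3 and 12.5 CPM in wt and 21.9, 17.3 and 18.7 CPM in MZ 4- to 8-cell libraries, and at 20.4, 24.1 and 29.0 CPM in wt and 10.7, 12.5 and 11.4 CPM in MZ sphere libraries. The call was lost in 12 of 21 alternatives (adjusted p of 0.000421 to 0.0995). The 7 lists, with 7, 4, 21, 18, 28, 20 and 18 genes tested, held no other call in the interaction. Of all genes, 1.1% were called higher and 0.874% lower. What lies behind either difference was not tested.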

How the results depend on the processing

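On log2(TPM + 1) and log2(TPM + 0.1), 5 members were higher and 16 lower in wt, and 5 higher and 18 lower in MZ. Of all 16595 genes, log2(TPM + 1) called 1804 higher and 8102 lower in wt, and 1875 and 6761 in MZ. In the sense opposite to the counts, with both pseudocounts, stood ccna1 (-0.23), ccnb1 (-0.21), ccnc (-0.12 and -0.13), CCNT2 (ENSDARG00000036510, -0.14), CCNL1 (-0.15 and -0.16), CDK11A (-0.10), cdk9 (-0.08), cdk12 (-0.04), cdk13 (-0.14), cdk2ap2 (-0.08) and wee2 (-0.18) in wt, and ccnc (-0.10), ccnl1b (-0.01), CCNT2 (-0.03), CCNL1 (-0.01), CDK11A (-0.04) and cdk2ap2 (-0.02) in MZ. 2 values that passed no test by edgeR were called in the opposite sense, cdk2 in wt (-0.40 and -0.41) and ccna1 in MZ (-0.39). Called lower there without a change of direction were ccnb2 in wt and MZ and ccnb1 in MZ, none of which edgeR had called. Centring log2(TPM + 1) on the median of all genes left 24 higher in wt, beside 5681 of all 16595 genes. With that setting 2981 of all genes were lower, and the median change of all genes was 0.22. cdk2 was 1 of the 24 (adjusted p = 0.0248, limma). Leaving out 1 library gave 18 to 23 higher and 7 to 9 lower in wt, 9 to 16 and 8 to 10 in MZ, and 0 and 0 to 1 for the interaction, which DESeq2 called lower for 4 members. Among all genes, leaving out 1 library gave 3623 to 4120 higher and 3461 to 3951 lower in wt. The ranges were 2547 to 3420 and 2342 to 3451 in MZ, and 15 to 467 and 11 to 339 for the interaction. At the 4- to 8-cell stage, leaving out 1 library gave 0 to 1 higher and 0 lower in MZ, beside 42 to 144 higher and 83 to 189 lower of all genes. The count was 1 higher with no filter and with each TPM setting, and DESeq2 called 1 lower. Of all genes, 227 were higher with no filter and 174 to 302 with a TPM setting. At the sphere stage, leaving out 1 library gave 0 to 1 higher and 0 to 2 lower, DESeq2 gave 1 and 5, and a fit to all 12 libraries 2 and 7. Of all 16595 genes that fit called 1306 higher and 1285 lower. With 1 library left out, 44 to 623 of all genes were higher and 40 to 627 lower at the sphere stage.

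Same-numbered libraries mostly did not deviate together (r of -0.0492 to 0.251 over 18 pairs, and -0.194 to 0.145 over 36 pairs with different numbers). The exception was replicate 3 of wt and MZ sphere (0.251), while replicates 1 and 2 of those groups were at 0.0215 and -0.00457, so the numbers were not taken to pair the samples. With the replicate block 0 members were higher at the 4- to 8-cell stage (ccnh adjusted p = 0.0668, edgeR), 1 was lower at the sphere stage (ccnb1, adjusted p = 0.0475), and 0 passed the interaction. Of all genes, that block left 27 higher at the 4- to 8-cell stage and 656 lower at the sphere stage. In the interaction it left 123 higher and 103 lower. For single genes over all alternatives, 2128 values kept their side of the threshold, 146 lost a call and 24 gained one. A further 38 turned in direction, of which 34 had been called by edgeR and 4 only by the alternative. Where neither made a call, the direction was not checked, and such values are counted as kept. Pools of 3 per group limit small changes, and low genes such as CDK5R1 rest on few reads.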
